A study of Mus musculus with 6 samples.

Results

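The class that the deposited annotation calls OMCD principal (principal cells of the outer medullary collecting duct) holds 373 of 22154 single mouse kidney cells, 225 from vehicle and 148 from furosemide libraries. Its members are all cells that carry this name in the authors' list of 15 cell classes. In a second clustering of the authors, 241 of them belong to the cluster AIC and 132 to the cluster AIC sub2, and none to a cluster named for principal cells. They are called the AIC part and the AIC sub2 part of the class here. The cells come from kidneys of 16-week-old mice labelled C57BL/6, or C57BL/6J in the protocol, with 3 samples in each of 2 groups. The furosemide group received 70 mg of furosemide per kg body weight for 1 week and the vehicle group received vehicle for as long, both in a gel food with 104 µmol sodium per kcal. Furosemide is a loop diuretic that blocks salt uptake by the thick ascending limb. All samples are labelled WT. No sorting or enrichment of collecting duct cells is named in the labels. Nothing there says that the samples were separate animals, so the p-values measure only the spread between these samples.

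Principal cells take up sodium through the epithelial sodium channel under the control of aldosterone, and take up water through aquaporins under the control of vasopressin. Type A intercalated cells secrete acid into the urine: a proton pump sits on their apical side, and the anion exchanger encoded by Slc4a1 returns bicarbonate to the blood. Type B intercalated cells secrete bicarbonate through pendrin, encoded by Slc26a4. Principal and type A intercalated cells lie next to each other in the outer medullary collecting duct.

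Counts of 456 genes, called the panel here, were available, and 714685 of these counts lay in the class. The sources do not say whether they came from the whole-transcriptome or the targeted assay. Vehicle libraries 1, 3 and 5 held 78, 80 and 67 cells of the class, and furosemide libraries 2, 4 and 6 held 50, 53 and 45. The summed counts ranged from 92272 to 150390 per library. The median cell of the class had 1542 counts in vehicle and 1878 in furosemide libraries. The authors marked all 22154 cells as singlets, and the deposited table's name says that doublets had been removed. No doublet caller was run here. Cells are identified by library and number, and 392 cells share their number with a cell of another library, 5 of them in the class.

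The 5 markers given for the class divided between both cell types. Levels are given in CPM, a gene's count scaled by the summed counts of the same cells in a library, as means ± SD over 6 libraries, and are compared within a gene, never between genes. The classes were built from these counts, so these levels are a description with no test. Aqp6, an aquaporin of the intracellular vesicles of type A intercalated cells, had plain CPM of 32429, 25716 and 37105 in vehicle and 24428, 26840 and 24206 in furosemide libraries. That was 60.1 times its level in all other cells. Slc4a1 had 24051, 21613 and 33359 CPM in vehicle and 19323, 15553 and 18594 CPM in furosemide libraries, 44.6 times the level in all other cells. In every library both stood above the level of all other cells, and no gene of at least 500 CPM in the class had a larger ratio.

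Rhcg, an ammonia channel of both cell types, was at 23533 ± 3171 CPM in the class, beside 18658 CPM in the cortical principal cell class (CCD principal) and 19777 CPM in the type A intercalated class (AIC). Fxyd4, a regulator of the sodium pump in principal cells, was at 41387 ± 3846 CPM, beside 67966 CPM in CCD principal and 1840 CPM in AIC. Atp12a, the non-gastric proton-potassium pump, was low: 13.3, 47.1 and 156 CPM in vehicle and 97.5, 60.8 and 351 CPM in furosemide libraries. It was found in 42 of 373 cells, so that it marked few cells of the class. Of the 7 panel genes on the list of type A markers, all 7 had counts in the class, and so had all 12 panel genes on the list of principal markers. Aqp2, the vasopressin-regulated water channel that defines principal cells, was at 131 ± 69.2 CPM, beside 301 CPM in CCD principal and 10.5 CPM in AIC. The data thus go against reading the annotated name as principal cells alone, and the class is called by its annotated name without taking it as a cell type.

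**Figure D1:**
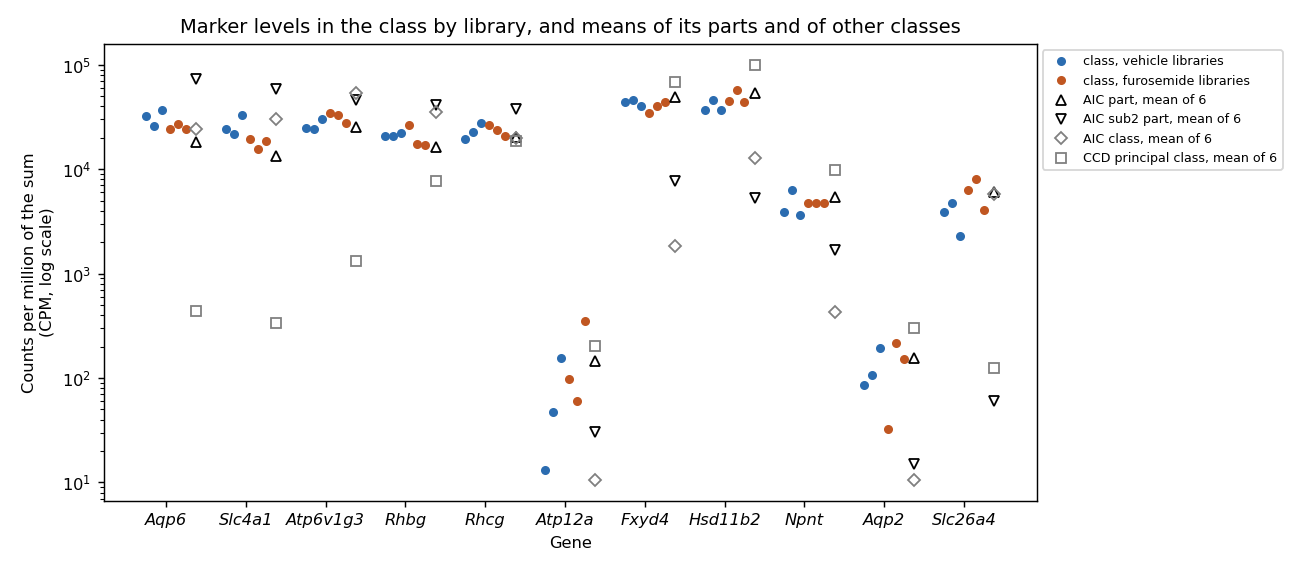
Level of 11 marker genes in CPM on a log axis. Filled points are the 6 libraries of the class (blue vehicle, orange furosemide) and open symbols are means over 6 libraries of its AIC part, its AIC sub2 part, the AIC class and the CCD principal class. For Fxyd4, Hsd11b2, Npnt and Aqp2 the AIC part lies below CCD principal and the AIC sub2 part far below both. For Aqp6 and Slc4a1 the AIC sub2 part lies highest.

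After Aqp6 and Slc4a1, the largest ratios to all other cells among genes of at least 500 CPM in the class were those of Guca2a (guanylin, a gut and kidney peptide hormone, 14.7), Atp6v1c2 (a proton pump subunit, 9.66), Slc4a9 (an anion exchanger of intercalated cells, 9.59) and Fxyd4 (8.95). Wnt9b (8.75), Atp6v1g3 (a proton pump subunit, 8.57), Cldn4 (a tight junction protein of the collecting duct, 8.23) and Rhbg (the basolateral ammonia channel, 7.61) completed the 10 largest. All of them stood above the rest in 6 of 6 libraries. The 10 genes with the highest CPM in the class were Tmsb4x (an actin-binding peptide), Hsd11b2, Fxyd4, Cldn4, Tmem213, Atf3, Atp1b1 (a sodium pump subunit), Fos, Atp6v1g3 and Aqp6, from 64977 down to 28454 CPM. This order depends on how each gene is captured and is no order of RNA levels. By ratio, the leading genes of the class held proton, ammonia and anion transporters of intercalated cells together with Fxyd4.

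The AIC part carried principal and intercalated cell genes under the same cell barcodes. Marker shares were taken per cell as the percent of its counts from 11 principal or 6 type A marker genes of the panel, with Rhcg left out because it is on both lists. The type A set does not separate type A from type B cells, since BIC cells also carry genes of it, such as Atp6v1g3 and Rhbg. In the median cell of the AIC part, principal markers took 13.0% and type A markers 7.94% of the counts. In the CCD principal class these medians were 21.7% and 1.08%, in the AIC class 1.49% and 18.3%, and in the type B intercalated class (BIC) 1.04% and 11.9%. At least 5% of both sets was found in 185 of 241 cells of the AIC part (76.8%). It was found in 14 of 132 cells of the AIC sub2 part (10.6%), in 21 of 340 cells of the AIC class (6.18%) and in 29 of 1225 cells of CCD principal (2.37%). Of 626 BIC cells it was found in 0, which allows a share of up to 0.479% at 3 counts, for counting error only.

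**Figure D2:**
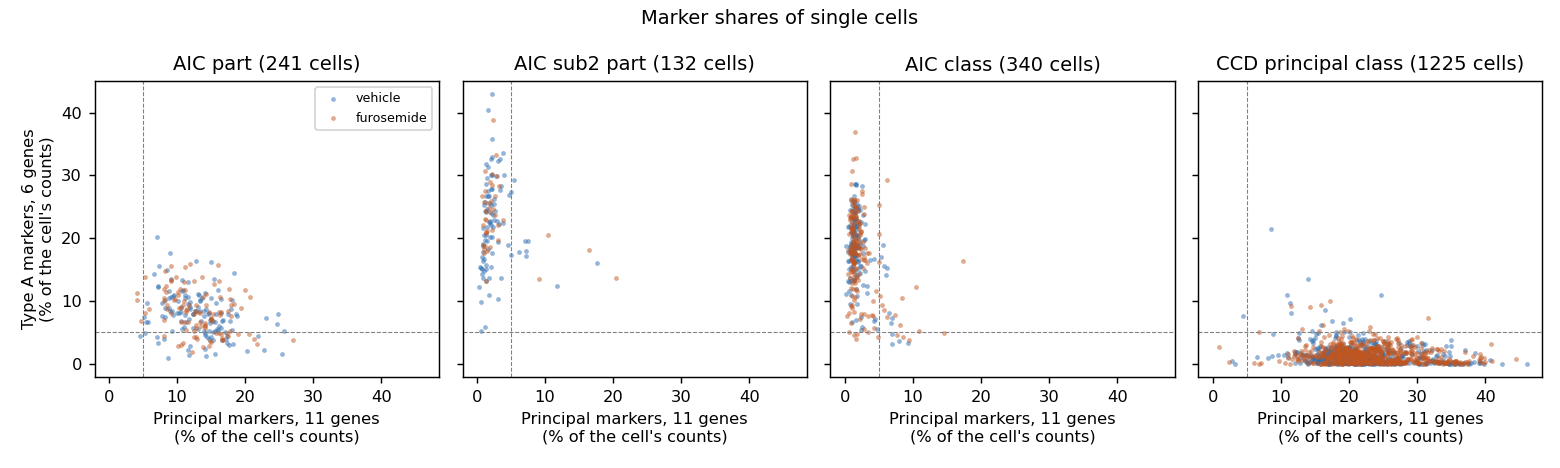
Percent of each cell's counts from 11 principal marker genes (horizontal) and 6 type A marker genes (vertical), blue for vehicle and orange for furosemide cells, with dashed lines at 5%. The AIC part lies above both lines in 185 of 241 cells, whereas the other panels lie along the axes.

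Single genes showed the same. Hsd11b2, the enzyme that shields the mineralocorticoid receptor from cortisol-like hormones, was found in 241 of 241 cells of the AIC part and Fxyd4 in 240. Aqp6 was found in 207 and Slc4a1 in 204 of these 241 cells. After each cell was thinned to 800 counts, Slc4a1 was found in 82.8% of the AIC part, 7.19% of CCD principal and 0.538% of thick ascending limb cells, which should lack it. Without thinning these shares were 84.6%, 8.41% and 0.946%. Aqp2 was found in 9.91% of thinned cells of the AIC part, 20.6% of CCD principal, 0.442% of AIC and 0.0538% of thick ascending limb cells. Of the 65 cells of the AIC part with Aqp2 before thinning, 55 also had Slc4a1.

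Cells of the AIC part held more counts than cells of either reference class. Their median total was 2217 counts, against 1290 in CCD principal, 938.5 in AIC, 949 in the AIC sub2 part and 1588.5 in BIC. The medians of the AIC class and of CCD principal add up to 2228.5 counts. Per cell, the AIC part held 127 ± 18.1 counts of Hsd11b2 and CCD principal 149 ± 24.1. For Fxyd4 the AIC part held 118 ± 15.7 counts and CCD principal 102 ± 19.9. For Atp6v1g3 the AIC part held 60.0 ± 13.0 counts and the AIC class 67.8 ± 10.6. For Slc4a1 it held 32.1 ± 8.15 counts and the AIC class 37.0 ± 8.26. In these 4 genes the difference from the named class was smaller than the sum of both SDs, on counts per cell rather than on shares of the counts. Set against some other cells this was not so. The AIC sub2 part held 60.5 ± 5.61 counts of Slc4a1 per cell, and BIC held 137 ± 26.2 counts of Atp6v1g3. For Aqp6 the AIC part held 43.8 ± 10.5 counts per cell, the AIC sub2 part 75.4 ± 4.89 and the AIC class 30.2 ± 4.39. The Aqp6 difference was larger than the sum of both SDs against the AIC sub2 part and smaller against the AIC class.

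**Figure D3:**
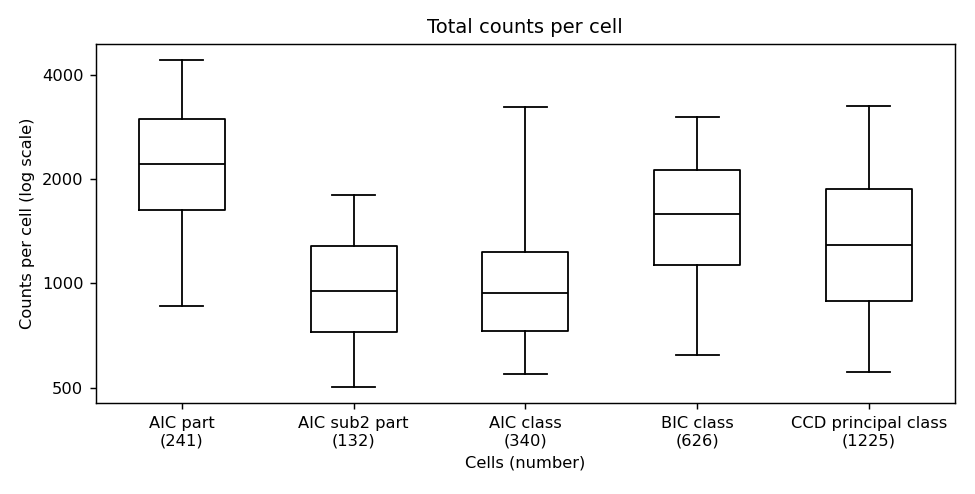
Counts per cell on a log axis, with the median, the quartiles (box) and the 5th to 95th percentile (whiskers). The medians lie at 2217 counts in the AIC part and between 938.5 and 1588.5 counts in the other 4 sets of cells.

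Levels of the AIC part also lay between those of both cell types across the panel. Of 76 genes that differed at least 2-fold between the AIC sub2 part and CCD principal, with at least 500 CPM in either, 70 (92.1%) had a level in between in the AIC part. At a 4-fold difference it was 40 of 44 genes (90.9%). Genes share their cells and libraries, so this is a description. Whether barcodes of the AIC part held RNA of more than 1 cell was not tested.

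The AIC sub2 part had the profile of type A intercalated cells. Type A markers took 22.5% and principal markers 1.90% of the counts of its median cell. Aqp6 and Slc4a1 were found in 132 of 132 cells. Their levels were 73174 ± 10007 and 58485 ± 6389 CPM, beside 24285 and 30138 CPM in the AIC class. Hsd11b2 was at 5348 ± 3928 CPM, beside 100064 CPM in CCD principal. Aqp2 was found in 2 of 132 cells and Slc26a4 in 7. Not all principal genes were low: Scnn1a was at 6041 ± 2199 CPM and Scnn1b at 4287 ± 1202 CPM, beside 4578 and 6632 CPM in the AIC part. Scnn1a, a subunit of the epithelial sodium channel, was also at 4420 CPM in the AIC class and 5631 CPM in BIC.

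Cluster AIC sub2 of the second clustering also holds 303 cells of the AIC class. These differed from the 132 cells of the class in several genes, among them genes of the connecting tubule. S100g, a calcium-binding protein of the connecting tubule, was at 2817 CPM in the AIC sub2 part and at 65439 CPM in the AIC cells of that cluster. Calb1, the other calcium-binding protein of that segment, was at 116 and 6972 CPM. Spp1 (osteopontin) was at 2249 and 48805 CPM, and Clu (clusterin) at 3717 and 26400 CPM. All 4 were lower in the AIC sub2 part in 6 of 6 libraries. Higher in 6 of 6 libraries were Aqp6 (73174 against 32425 CPM), Fxyd4 (7636 against 549 CPM), Cryab (a small heat shock protein, 22597 against 5352 CPM) and Hist1h1c (a linker histone, 5406 against 741 CPM). The annotation separated these cells by the same counts, so no test is given.

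Some cells of the AIC part held the type B gene Slc26a4 and no count of the type A gene Slc4a1. Slc26a4 without Slc4a1 was found in 36 of its 241 cells, Slc4a1 without Slc26a4 in 190, both in 14 and neither in 1. They numbered 7, 8 and 3 in vehicle libraries 1, 3 and 5, against 7, 9 and 2 in furosemide libraries 2, 4 and 6, with overlapping groups. All 36 had Insrr (an insulin receptor-related receptor of type B cells), Slc4a9, Hsd11b2 and Fxyd4, and 3 had Aqp6. All 36 also had Atp6v1g3, a gene of the type A set that BIC cells carry too. Its pooled level was 39349 CPM in them and 21608 CPM in the 204 cells with Slc4a1. Their median total was 2587.5 counts. In the AIC sub2 part no cell had Slc26a4 without Slc4a1.

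Markers of other segments and cell types were low in the class, with exceptions. Slc14a2, the urea transporter of the inner medulla, had no count. The podocyte marker Nphs1 had none either, and the 4 podocyte genes of the panel summed to at most 66.5 CPM in any library. The 7 thick ascending limb markers, among them Kcnj1, which is also a principal marker, summed to between 3248 and 4897 CPM. The same genes summed to 485716 CPM in the thick ascending limb class, 7185 CPM in CCD principal and 6328 CPM in AIC. The 6 immune markers of the panel summed to between 242 and 1114 CPM in vehicle and between 70.3 and 173 CPM in furosemide libraries, with Cd4 at 0. Genes that respond to tissue dissociation (6 genes, among them Fos, Jun and Atf3) summed to between 87626 and 92313 CPM in vehicle and between 60865 and 77694 CPM in furosemide libraries. The part of these differences in the treatment results was not tested.

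The series compares a week of furosemide with vehicle, and the class made up a smaller share of cells with furosemide. In vehicle libraries 1, 3 and 5 it held 1.91%, 2.41% and 1.82% of all cells. In furosemide libraries 2, 4 and 6 it held 1.64%, 1.19% and 1.25%. The groups did not overlap, with means of 2.05% ± 0.319 and 1.36% ± 0.241 (SD, n = 3) and a log2 ratio of -0.59 (two-sided exact permutation test, p = 0.1, which is the lowest value possible with 3 libraries a group, adjusted p = 0.22 over 11 shares). With edgeR on cell numbers of the 15 classes the adjusted p was 0.151. Neither test passed at 0.05. Shares depend on the other classes. In the same edgeR test the thick ascending limb class was lower with furosemide (log2 change -0.84, edgeR adjusted p = 0.0154). The connecting tubule class (0.82, edgeR adjusted p = 0.0181) and the DCT2 class (distal convoluted tubule, 1.06, edgeR adjusted p = 0.00852) were higher. Without thick ascending limb cells in the total, the share was 2.69% ± 0.455 in vehicle and 1.57% ± 0.249 in furosemide libraries (exact permutation p = 0.1). Among collecting duct cells (OMCD principal, AIC, BIC and CCD principal) the share was 18.3% ± 2.45 in vehicle and 11.8% ± 2.60 in furosemide libraries, again without overlap (exact permutation p = 0.1). Among OMCD principal plus AIC cells alone it was 59.2% ± 6.26 and 46.4% ± 11.1, with overlapping groups (exact permutation p = 0.2). The deposited table holds 11077 cells of each group, and its name speaks of equal cell numbers.

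The 2 parts of the class did not share this evenly. The AIC sub2 part held 0.735%, 0.844% and 0.924% of all cells in vehicle and 0.557%, 0.270% and 0.307% in furosemide libraries, a log2 ratio of -1.14 with no overlap (exact permutation p = 0.1). The AIC part held 1.18%, 1.57% and 0.897% in vehicle and 1.08%, 0.924% and 0.948% in furosemide libraries, a log2 ratio of -0.30 with overlapping groups (exact permutation p = 0.4). Within the class, the AIC sub2 part made up 38.5%, 35.0% and 50.7% of cells in vehicle and 34.0%, 22.6% and 24.4% in furosemide libraries (exact permutation p = 0.1). The AIC class, which the second clustering places mostly with the AIC sub2 part, held 1.42% ± 0.326 and 1.61% ± 0.472 of all cells (exact permutation p = 0.6). All cells of the clusters AIC and AIC sub2, whatever their class, held 3.50% ± 0.372 and 2.96% ± 0.385, with overlapping groups (exact permutation p = 0.2). A sum over the class therefore mixes both parts in another proportion in each group, and each part was also fitted by itself.

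**Figure D4:**
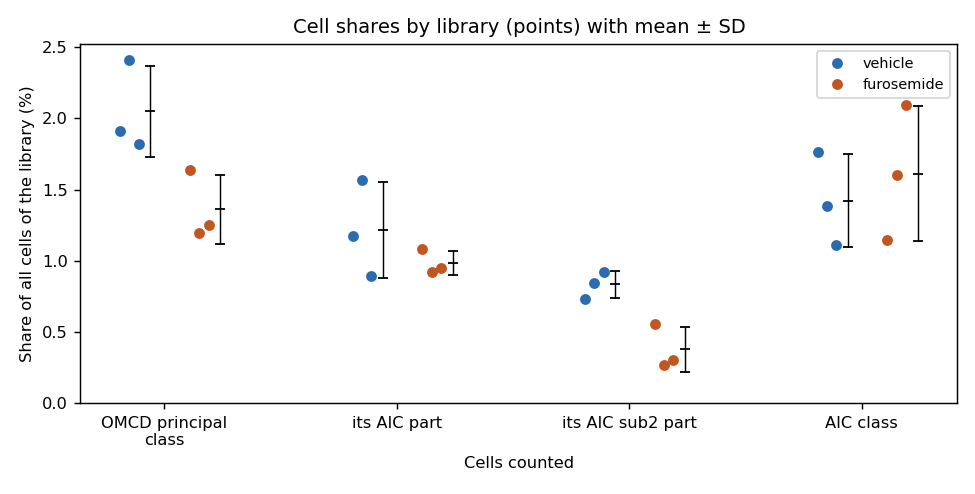
Percent of all cells of a library in the OMCD principal class, its AIC part, its AIC sub2 part and the AIC class, with points for libraries and mean ± SD over 3 libraries. Vehicle and furosemide points are apart for the class and for its AIC sub2 part, and overlap for the AIC part and the AIC class.

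No gene of the class passed the test for an effect of furosemide. Of 244 genes tested with edgeR's quasi-likelihood test on counts summed per library, 0 passed an adjusted p of 0.05 (0%), while DESeq2 called 6. At an unadjusted p under 0.05 there were 31 (12.7%), of which 16 were higher (6.56%) and 15 lower (6.15%) with furosemide. The libraries of both groups did not overlap in 40 genes (16.4%), 17 of them higher (6.97%) and 23 lower (9.43%). Described next are, per direction, the 5 genes with the lowest p, with values in CPM scaled by TMM (trimmed mean of M-values).

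Ckb, the brain-type creatine kinase that buffers ATP, was at 1411, 1420 and 1727 CPM in vehicle and 4164, 4673 and 2168 CPM in furosemide libraries. All furosemide libraries lay above all vehicle libraries, with a log2 change of 1.27 ± 0.30 (SE, edgeR adjusted p = 0.204). Without furosemide library 6, its lowest furosemide value, it was 1.54 and passed (edgeR adjusted p = 0.0267). Atp4a, the alpha subunit of the gastric-type proton-potassium pump, was at 1385, 1938 and 1087 CPM in vehicle and 3222, 3128 and 2606 CPM in furosemide libraries. Its groups did not overlap either, at a log2 change of 1.02 ± 0.24 (edgeR adjusted p = 0.204). Calb1 was at 2149, 3424 and 2093 CPM in vehicle and 4973, 3982 and 6516 CPM in furosemide libraries. Its log2 change was 1.01 ± 0.27 (edgeR adjusted p = 0.212). Guca2a was at 2403, 1938 and 2339 CPM in vehicle and 3429, 3455 and 3375 CPM in furosemide libraries, a log2 change of 0.62 ± 0.18 (edgeR adjusted p = 0.248). Tfrc, the transferrin receptor that takes up iron, had a log2 change of 1.04 ± 0.32 (edgeR adjusted p = 0.248). These 5 genes had higher values in all 3 furosemide libraries than in any vehicle library, and none passed the adjusted threshold with all 6 libraries.

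Among the genes with lower values, H2-Aa and Cd74 belong to antigen presentation by major histocompatibility complex class II and rested on few cells. H2-Aa had 27, 124 and 146 counts in vehicle libraries 1, 3 and 5, against 1, 0 and 0 in furosemide libraries 2, 4 and 6. In library 3 a single cell held 123 of the 124 counts, and in library 5 a single cell held 144 of 146. In all, 8 of 373 cells had a count of H2-Aa. All 8 had Aqp6 and Atp6v1g3, 4 had Cd74 and 2 had Lyz2, a lysozyme of macrophages. Cd74 had 42, 15 and 58 counts in vehicle and 3, 5 and 0 counts in furosemide libraries, in 24 cells. The edgeR adjusted p was 0.0567 for H2-Aa (0.000484 without vehicle library 1) and 0.204 for Cd74, and the summed immune markers given above, which include Cd74 itself, were higher in vehicle libraries. The part of immune cell RNA in these values was not tested.

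Cryab was at 16529, 18063 and 18386 CPM in vehicle and 12328, 11256 and 14014 CPM in furosemide libraries, without overlap and at a log2 change of -0.49 ± 0.14 (edgeR adjusted p = 0.248). Bok, a member of the BCL2 family that regulates cell death, was at 248, 272 and 228 CPM in vehicle and 114, 81.8 and 128 CPM in furosemide libraries (log2 change -1.21 ± 0.31, edgeR adjusted p = 0.204). Col4a3, a chain of basement membrane collagen, was at 202, 338 and 238 CPM in vehicle and 145, 90.9 and 117 CPM in furosemide libraries (log2 change -1.14 ± 0.34, edgeR adjusted p = 0.248). The values of all 3 genes were lower in every furosemide library than in any vehicle library, and none passed.

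**Figure D5:**
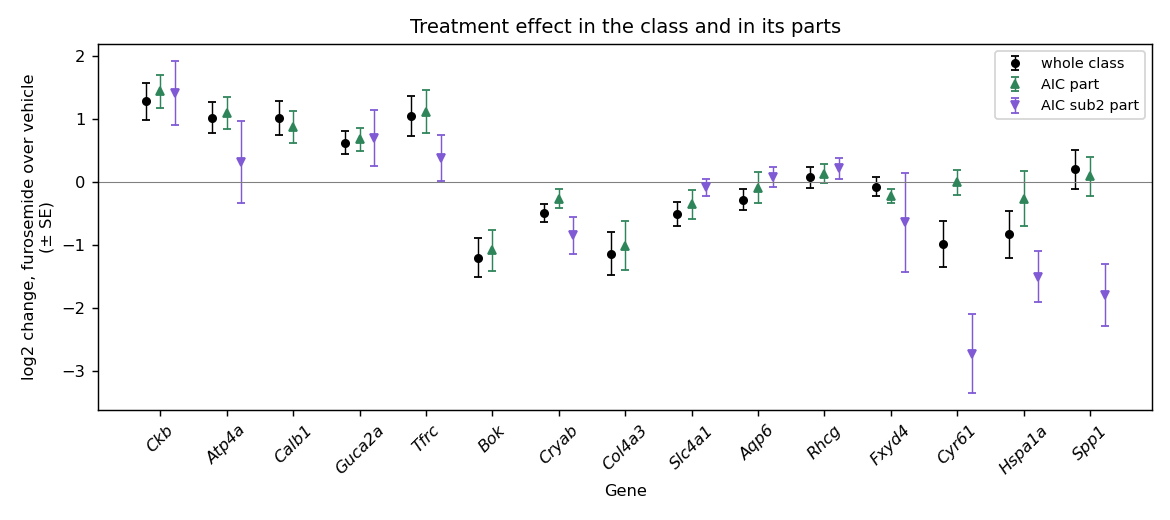
Log2 change with furosemide over vehicle ± SE from edgeR for 15 genes, in the whole class (circles), its AIC part (upward triangles) and its AIC sub2 part (downward triangles). Values for Ckb are 1.27, 1.43 and 1.41, and none of the points passed the adjusted threshold. Genes without a point for a part were not tested there.

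The markers that define the class showed no called change. Slc4a1, on the TMM scale, was at 23621, 21321 and 33126 CPM in vehicle and 18471, 16275 and 19782 CPM in furosemide libraries, without overlap (log2 change -0.52 ± 0.19, edgeR adjusted p = 0.351). In the parts, whose proportion differed between groups, its log2 change was -0.36 ± 0.23 (AIC part) and -0.09 ± 0.14 (AIC sub2 part). Aqp6 had a log2 change of -0.29 ± 0.17 in the class, -0.10 ± 0.24 in the AIC part and 0.08 ± 0.15 in the AIC sub2 part. Rhcg had a log2 change of 0.07 ± 0.16, Fxyd4 of -0.08 ± 0.15 and Atp12a of 1.36 ± 0.90 in the class (edgeR adjusted p = 0.881, 0.856 and 0.526). For each of these 4 genes the groups overlapped in the class.

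Gene groups are given by counts, beside 244 genes tested in the class, 125 with values above and 119 below zero change, at a median log2 change of 0.01. Of the type A markers 7 were tested, with 0 called and a median log2 change of 0.07. Of the principal markers 12 were tested, with 0 called, 10 values above and 2 below zero change, and a median of 0.19. Scnn1g, a subunit of the epithelial sodium channel, was at 3429, 4240 and 3025 CPM in vehicle and 5760, 5164 and 4337 CPM in furosemide libraries (log2 change 0.51 ± 0.20, edgeR adjusted p = 0.351). Its groups did not overlap. The other 2 subunits, Scnn1a and Scnn1b, had log2 changes of 0.22 ± 0.30 and 0.25 ± 0.19 with overlapping groups. Of 14 tested genes of sodium channel and aldosterone signalling 0 were called, at a median of 0.25.

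Of 9 tested genes of proton secretion and acid-base transport 0 were called, at a median log2 change of 0.23. Atp6v1g3 had a log2 change of 0.29 ± 0.15 in the class and of 0.50 ± 0.15 in the AIC part, where the groups did not overlap (edgeR adjusted p = 0.424 and 0.298). Of 4 tested genes of ammonia transport and production 0 were called, at a median of 0.12. Rhbg had a log2 change of -0.02 ± 0.17. Of 11 tested chloride channel and transport genes 0 were called. Of 9 tested growth factor and receptor genes 0 were called and all 9 had values below zero change, at a median of -0.42. Of 4 tested cell cycle genes 0 were called, and Birc5 and Mki67, genes of dividing cells, were found together in 2 of 373 cells.

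In the AIC part 0 of 231 genes were called (0%), with 24 at an unadjusted p under 0.05 (10.4%), 15 higher (6.49%) and 9 lower (3.9%), and 3 called by DESeq2. The libraries of both groups did not overlap in 44 genes (19%), 25 of them higher (10.8%) and 19 lower (8.23%). Ckb was at 1055, 1074 and 1253 CPM in vehicle and 3122, 3892 and 2095 CPM in furosemide libraries. This was the smallest p in the AIC part, with a log2 change of 1.43 ± 0.26 (edgeR adjusted p = 0.132, and 0.0274 without furosemide library 6). Atp4a had a log2 change of 1.09 ± 0.25, Guca2a of 0.67 ± 0.19 and Calb1 of 0.86 ± 0.25 (edgeR adjusted p = 0.298 for each). Hbegf, a growth factor of the EGF family, was at 17827, 13427 and 14379 CPM in vehicle and 9964, 10254 and 11566 CPM in furosemide libraries. Its groups did not overlap, at a log2 change of -0.52 ± 0.15 (edgeR adjusted p = 0.298). Bok had a log2 change of -1.09 ± 0.32, Wnt4 of -0.96 ± 0.31, Hist1h1c of -0.99 ± 0.32 and Timp2 of -0.62 ± 0.24. None of them passed with all libraries. Hist1h1c passed without furosemide library 6, at -1.45 (edgeR adjusted p = 0.0274).

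In the AIC sub2 part 0 of 145 genes were called (0%), with 11 at an unadjusted p under 0.05 (7.59%), 4 higher (2.76%) and 7 lower (4.83%), and 2 called by DESeq2, Cyr61 and Spp1. The libraries of both groups did not overlap in 18 genes (12.4%). It rested on 17, 12 and 11 cells in the furosemide libraries. Cyr61, a matrix protein induced by growth signals and stress, was at 2545, 2604 and 8584 CPM in vehicle and 463, 594 and 1089 CPM in furosemide libraries. Its groups did not overlap, at a log2 change of -2.73 ± 0.63 (edgeR adjusted p = 0.338). Hspa1a, an inducible heat shock protein, was at 17230, 11144 and 18939 CPM in vehicle and 6766, 2675 and 7125 CPM in furosemide libraries (log2 change -1.51 ± 0.41, edgeR adjusted p = 0.338). Spp1 was at 3219, 3506 and 4002 CPM in vehicle and 463, 792 and 1979 CPM in furosemide libraries (log2 change -1.80 ± 0.49, edgeR adjusted p = 0.338). For Hspa1a and Spp1 the groups did not overlap either. Cyr61 passed without vehicle library 1 (-3.03, edgeR adjusted p = 0.0210) and Spp1 without furosemide library 6 (-2.64, edgeR adjusted p = 0.0176). Cyr61 and Hspa1a respond to stress and handling, and the summed dissociation genes of the class, which include Hspa1a, were also lower in furosemide libraries. Their part was not tested. In the AIC part the log2 changes were -0.01 ± 0.20 for Cyr61, -0.27 ± 0.44 for Hspa1a and 0.09 ± 0.31 for Spp1.

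Cryab and Timp3, an inhibitor of matrix proteases, also had lower values in all furosemide libraries of the AIC sub2 part, at log2 changes of -0.85 ± 0.30 and -1.14 ± 0.45 (edgeR adjusted p = 0.558 for both). Cux1, a transcription factor, had higher values in all 3 furosemide libraries, at 0.58 ± 0.28. Ckb, at 1.41 ± 0.51, had overlapping groups. None of these 4 genes passed in the AIC sub2 part, save Ckb without furosemide library 6 (1.72, edgeR adjusted p = 0.0257). Timp3 was also lower in BIC, where it passed, at -1.60 ± 0.19 (edgeR adjusted p = 0.00416). It was at -0.25 ± 0.15 in CCD principal and 0.15 ± 0.23 in AIC. Hspa1a was at -1.11 ± 0.26 in BIC (edgeR adjusted p = 0.0815), 0.06 ± 0.27 in CCD principal and -0.24 ± 0.42 in AIC.

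The difference of the furosemide effect between both parts was tested as an interaction with the library as a block, a comparison added after these values were seen. It called 0 of 224 genes (0%), with 8 at an unadjusted p under 0.05 (3.57%). The difference (AIC part minus AIC sub2 part) was 1.99 ± 0.37 for Spp1 (edgeR adjusted p = 0.152) and 2.47 ± 0.58 for Cyr61 (edgeR adjusted p = 0.317). DESeq2 called these 2 genes. Among the other genes of lowest p, Ptger3, Hspa1a and Osgin1 had differences of 3.54, 1.12 and 1.43, and Smad3, Kcnj10 and Gprc5a of -1.29, -1.43 and -0.87 (edgeR adjusted p = 0.932 for each). For Ckb the log2 changes in both parts, 1.43 ± 0.26 and 1.41 ± 0.51, lay well within their errors of each other.

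Set against the AIC class, the furosemide effect of the class differed in 1 of 256 genes (0.391%), H2-Aa, with 15 at an unadjusted p under 0.05 (5.86%). In the AIC class H2-Aa had 1, 1 and 2 counts in vehicle libraries, against 313, 0 and 0 in furosemide libraries 2, 4 and 6, of which a single cell held 310. The fitted difference of -13.64 on the log2 scale (edgeR adjusted p = 6.2e-05) thus rests on few cells in either class, and without furosemide library 2 it was -4.98 (edgeR adjusted p = 1.0). With DESeq2 it was -7.87 (adjusted p = 0.309). The 5 genes of lowest p with higher values in the class had these log2 changes in the other classes, which come from the same 6 libraries. Calb1 was at 1.86 ± 0.34 in AIC, 1.26 ± 0.23 in CCD principal and 1.30 ± 0.28 in BIC, beside 1.01 in the class. Tfrc was at 1.37 ± 0.52, 1.73 ± 0.37 and 0.01 ± 0.37, beside 1.04, and Atp4a at 0.43 ± 0.30, 0.99 ± 0.25 and 0.94 ± 0.20, beside 1.02. Ckb was at 0.21 ± 0.37, 0.54 ± 0.22 and 0.41 ± 0.20, beside 1.27, and Guca2a at -0.07 ± 0.26, -0.20 ± 0.49 and 0.19 ± 0.17, beside 0.62. For none of the 5 genes did the difference from AIC or from CCD principal pass the test, and the difference from BIC was not tested. Values for Calb1 and Atp4a were thus of like or larger size in CCD principal and BIC, and those for Calb1 and Tfrc in AIC and CCD principal.

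Set against CCD principal, the furosemide effect differed in 4 of 281 genes (1.42%), 2 higher (0.712%) and 2 lower (0.712%), with 35 at an unadjusted p under 0.05 (12.5%). By themselves, edgeR called 0 of 281 genes in CCD principal, with 53 at an unadjusted p under 0.05 (18.9%), and 0 of 219 in AIC, with 13 (5.94%). In BIC it called 1 of 245 genes (0.408%), Timp3, with 31 at an unadjusted p under 0.05 (12.7%). Hmox1, heme oxygenase, was at plain CPM of 6304, 2987 and 2540 in vehicle and 9049, 7672 and 4729 in furosemide libraries of the class. In CCD principal it was at 8629, 4125 and 4202 CPM in vehicle and 6612, 5951 and 3648 CPM in furosemide libraries. The difference of the log2 changes was 0.97 ± 0.11 (edgeR adjusted p = 0.0162). Fos, an immediate early transcription factor, was at 27821, 35745 and 35678 CPM in vehicle and 32231, 20202 and 24788 CPM in furosemide libraries of the class. In CCD principal it was at 19198, 23802 and 27744 CPM in vehicle and 35301, 27513 and 31759 CPM in furosemide libraries, so that the furosemide mean was the lower in the class and the higher in CCD principal. The difference was -0.78 ± 0.11 (edgeR adjusted p = 0.0245). Fos is among the dissociation genes whose sum was lower in furosemide libraries of the class, and the part of handling was not tested. Both parts of the class differed in level. Vehicle means were 4976 CPM for Hmox1 and 28488 CPM for Fos in the AIC part, against 752 and 46143 CPM in the AIC sub2 part. The AIC sub2 part made up a mean of 41.4% of the class in vehicle and 27.0% in furosemide libraries. How much this proportion adds to these differences was not tested.

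Slc26a4 was at 3916, 4749 and 2291 CPM in vehicle and 6340, 8141 and 4096 CPM in furosemide libraries of the class, and at 140, 229 and 242 CPM in vehicle and 39.0, 80.9 and 20.8 CPM in furosemide libraries of CCD principal. The difference was 2.87 ± 0.43 (edgeR adjusted p = 0.0266). In CCD principal it rested on few counts: 43, 78 and 44 in vehicle libraries 1, 3 and 5, against 10, 46 and 4 in furosemide libraries 2, 4 and 6. Single cells held 30 of the 43 counts in library 1 and 66 of the 78 in library 3. In the class, 57 cells had a count, 50 of them in the AIC part, and no single cell held more than 205 of its 3474 counts. H2-Aa differed by -8.70 ± 1.48 (edgeR adjusted p = 0.0419) and again rested on few cells. Without furosemide library 4 or without furosemide library 6, 0 of these differences passed the edgeR test, with the log2 difference of Hmox1 at 0.95 and 0.90, that of Fos at -0.75 and -0.84, that of Slc26a4 at 3.23 and 2.69 and that of H2-Aa at -7.89 and -8.83. Without the cells with the top 5% of totals none passed, and the difference of Hmox1 was 0.56 (edgeR adjusted p = 0.586). Without furosemide library 2 or vehicle library 3, Hmox1, Fos and Slc26a4 no longer passed either, with edgeR adjusted p between 0.0548 and 0.139.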

How the data were processed

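Single kidney cells of 6 samples were captured on BD Rhapsody beads and made into whole-transcriptome and targeted libraries, per the labels' protocols. Bowtie2 2.2.9 is named in the submitters' processing notes. For genome build and counting step the sources used here give no name. Whole-number counts per cell and gene make up the deposited table, without a word on whether they are molecules or reads. Depth per cell therefore limits what low genes can show, and intervals cover counting error only. The deposited annotation gives, as other values, each cell's library number, treatment, class, second clustering and doublet mark. Library numbers could not be joined to the replicate numbers of the titles, so no pairing was used, and the text names each sample by its treatment and library number.

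Counts were summed per library over the class and over each part, and fitted in R 4.3.3 by the robust quasi-likelihood test of edgeR 4.0.16, after filterByExpr by group and TMM scaling. Benjamini-Hochberg adjustment ran over all genes tested, at 0.05. Differences of effects were interactions with the library as a block. SE is the log2 change divided by the square root of F. Shares were compared by exact permutation. The fits were tested on simulated data with a spread fixed in advance. This spread was the same for every gene, so the shares called there need not hold for the real counts. At a true log2 change of 1 the class fit called 50 of 63 genes (79.4%). The fit of the difference from the AIC class called 18 of 65 (27.7%). At a change of 2 these were 48 of 48 and 49 of 56 (87.5%). Of genes without a change, 5 of 137 (3.65%) and 1 of 139 (0.719%) were called. A difference that did not pass may thus be one that the test missed. Alternatives were other scalings, DESeq2 1.42.0, no filter, leaving out each library, cells thinned to 800 counts, the top 5% of totals left out, equal cell numbers, and the clusters in place of the class. The members and the 24 gene lists were chosen with earlier results of these data known. Named are the 5 class markers, the 10 genes of highest CPM, members of the lists, the 10 genes with the largest ratio to other cells, called genes, or, in a comparison without calls, the 5 of lowest p per direction. Genes of the AIC sub2 part set against AIC cells of its cluster, Scnn1g in the class, and Lyz2, were chosen after their values were seen. Results for a few genes that the naming rule includes are not reported here.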

Additional observations from a re-analysis of the deposited data

Results flagged for a closer look

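The furosemide effect of the class differed from that of another class, by a test of the difference itself, in these 5 cases. H2-Aa differed from the AIC class by -13.64 on the log2 scale (edgeR adjusted p = 6.2e-05), with 298 counts in 8 cells of the class and 317 counts in 6 cells of the AIC class. H2-Aa differed from CCD principal by -8.70 (edgeR adjusted p = 0.0419). Hmox1 differed from CCD principal by 0.97 (edgeR adjusted p = 0.0162), with a log2 change of 0.89 ± 0.36 in the class and -0.01 ± 0.34 in CCD principal. Fos differed from CCD principal by -0.78 (edgeR adjusted p = 0.0245), with -0.32 ± 0.18 in the class and 0.46 ± 0.16 in CCD principal. Slc26a4 differed from CCD principal by 2.87 (edgeR adjusted p = 0.0266), with 0.81 ± 0.32 in the class and -1.94 ± 0.49 in CCD principal, where single cells held 30 of 43 counts in vehicle library 1 and 66 of 78 in vehicle library 3. In the AIC part alone the log2 changes were 0.77 ± 0.37 for Hmox1, -0.06 ± 0.23 for Fos and 0.67 ± 0.29 for Slc26a4. In the AIC sub2 part they were 0.99 ± 0.72 for Hmox1 and -0.73 ± 0.29 for Fos, and Slc26a4 was not tested there. The parts made up other proportions of the class in each group, and how much this adds to the differences was not tested.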

How the results depend on the processing

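The count of called genes in the class, 0 with the reported settings, was 1 with RLE size factors, 1 with library size only and 6 with DESeq2 (Ckb, Atp4a, Calb1, Guca2a, H2-Aa and Cd74), and between 0 and 2 when each library was left out, with 2 without vehicle library 1 and 2 without furosemide library 6. In the AIC part the count of 0 was 3 with DESeq2, 1 with thinned cells and between 0 and 2 with a library left out (2 without furosemide library 6). In the AIC sub2 part the count of 0 was 2 with DESeq2 and between 0 and 4 with a library left out (3 without vehicle library 1, 4 without furosemide library 6). The difference from the AIC class, 1 gene, was 2 with library size only, 2 without a filter on low counts and between 0 and 2 with a library left out (0 without furosemide library 2, 2 without furosemide library 4 or 6). The difference from CCD principal, 4 genes, was 1 with RLE size factors, 0 without a filter, 1 with thinned cells, 0 without the top 5% of totals, 0 with equal cell numbers and between 0 and 3 with a library left out (1 without furosemide library 2, 2 without vehicle library 3). The difference between both parts, 0 genes, was 2 with DESeq2. With all cells of the clusters AIC and AIC sub2 in place of the class, H2-Aa turned from -7.46 to 0.45 and Cd74 from -3.44 to 0.53. With thinned cells the share of class cells with Aqp2, furosemide minus vehicle, turned from -0.92 to 3.21 percentage points. The cause of these changes was not tested. Of the called differences from CCD principal, 35 values no longer passed under an alternative and 17 still did. Of those from the AIC class, 2 no longer passed and 11 did. In the comparisons without calls, 23 values for named genes passed under an alternative. No paired analysis was possible because library numbers could not be joined to the replicate numbers of the labels. Low depth limits the AIC sub2 part most, with 10139 to 35930 counts per library.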
